A study of Mus musculus with 16 samples.

Results

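The 10 genes described here are the immediate early genes Fos, Fosb, Jun, Junb, Jund, Egr1, Ier2, Atf3, Dusp1 and Zfp36 in mouse hematopoietic stem cells (HSCs). They were taken by symbol from the 25239 rows of a bulk RNA-seq count table, in which all 10 were present. Of the 10, 9 passed a filter on low counts and were tested among 14124 genes. Atf3 did not pass: it had 5 counts in 1 library (KO fresh replicate 2) and 0 in the other 15.

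The 16 libraries came from bone marrow HSCs of mice aged 4 to 6 months that either carried a knockout of Selp, the gene of the adhesion receptor P-selectin (KO), or did not (WT). Cells were cultured with the P-selectin ligand PSGL-1 at 125 ng/mL for 24 hours (3 KO and 2 WT libraries), cultured with vehicle (3 KO and 3 WT), or collected directly after sorting (2 KO and 3 WT, called fresh). The medium held 10% fetal calf serum, stem cell factor at 300 ng/mL, interleukin-11 at 20 ng/mL and Flt-3 ligand at 1 ng/mL. The sources used here give neither the length of vehicle culture nor the Selp allele, the sorting gate or the sex of the mice. Nothing in them ties a replicate to its own mouse, so a p-value here reflects the spread between libraries, which may be technical.

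Library totals lay between 12590539 and 24690824 counts, so that 3 counts, used here as the detection floor, corresponded to 0.122 to 0.238 CPM (counts scaled to the library total). Floors cover counting error only. The targeted gene Selp was at 5.08 ± 4.48 CPM over the 8 KO libraries and at 94.1 ± 60 CPM over the 8 WT libraries (SD). Summed HSC markers, all 12 of them detected, lay between 2140 and 3700 CPM in every library, while the T cell genes Cd3e, Cd3d and Cd3g and the B cell genes Ms4a1 and Ebf1 were at 0 throughout. WT PSGL-1 replicate 1 was a sparse library, with 9035 detected genes against 11101 to 13480 in the others. It held the highest cultured level of Fos, Jun and Zfp36 and 0 counts of Dusp1. For these genes the fold change over all cultured against fresh libraries is given with and without it.

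Immediate early genes are transcribed within minutes of a stimulus, from factors already present in the cell, and their mRNAs are usually short-lived. Fos and Jun proteins pair through leucine zippers to form AP-1, which binds DNA as a dimer. Egr1 is a zinc finger factor induced with them by growth factors and stress. The same genes are known to be induced while tissue is dissociated and cells are sorted, and in HSCs Egr1 has been tied to quiescence and retention in the marrow niche.

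Jun, Fos, Dusp1 and Ier2 were lower in cultured than in fresh HSCs, by 10.9-fold, 7.87-fold, 6.63-fold and 2.96-fold in the comparison of all 11 cultured with all 5 fresh libraries. Junb, Jund, Egr1 and Zfp36 did not pass the test in either direction. The 4 lower genes were 4 of the 9 tested, against 4.67% of all 14124 genes lower in that comparison (edgeR's quasi-likelihood test, adjusted p under 0.05 over all genes). The median log2 fold change was -1.17 over the 8 genes counted in every group, against -0.07 over the 11730 genes counted in every group.

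**Figure D1:**
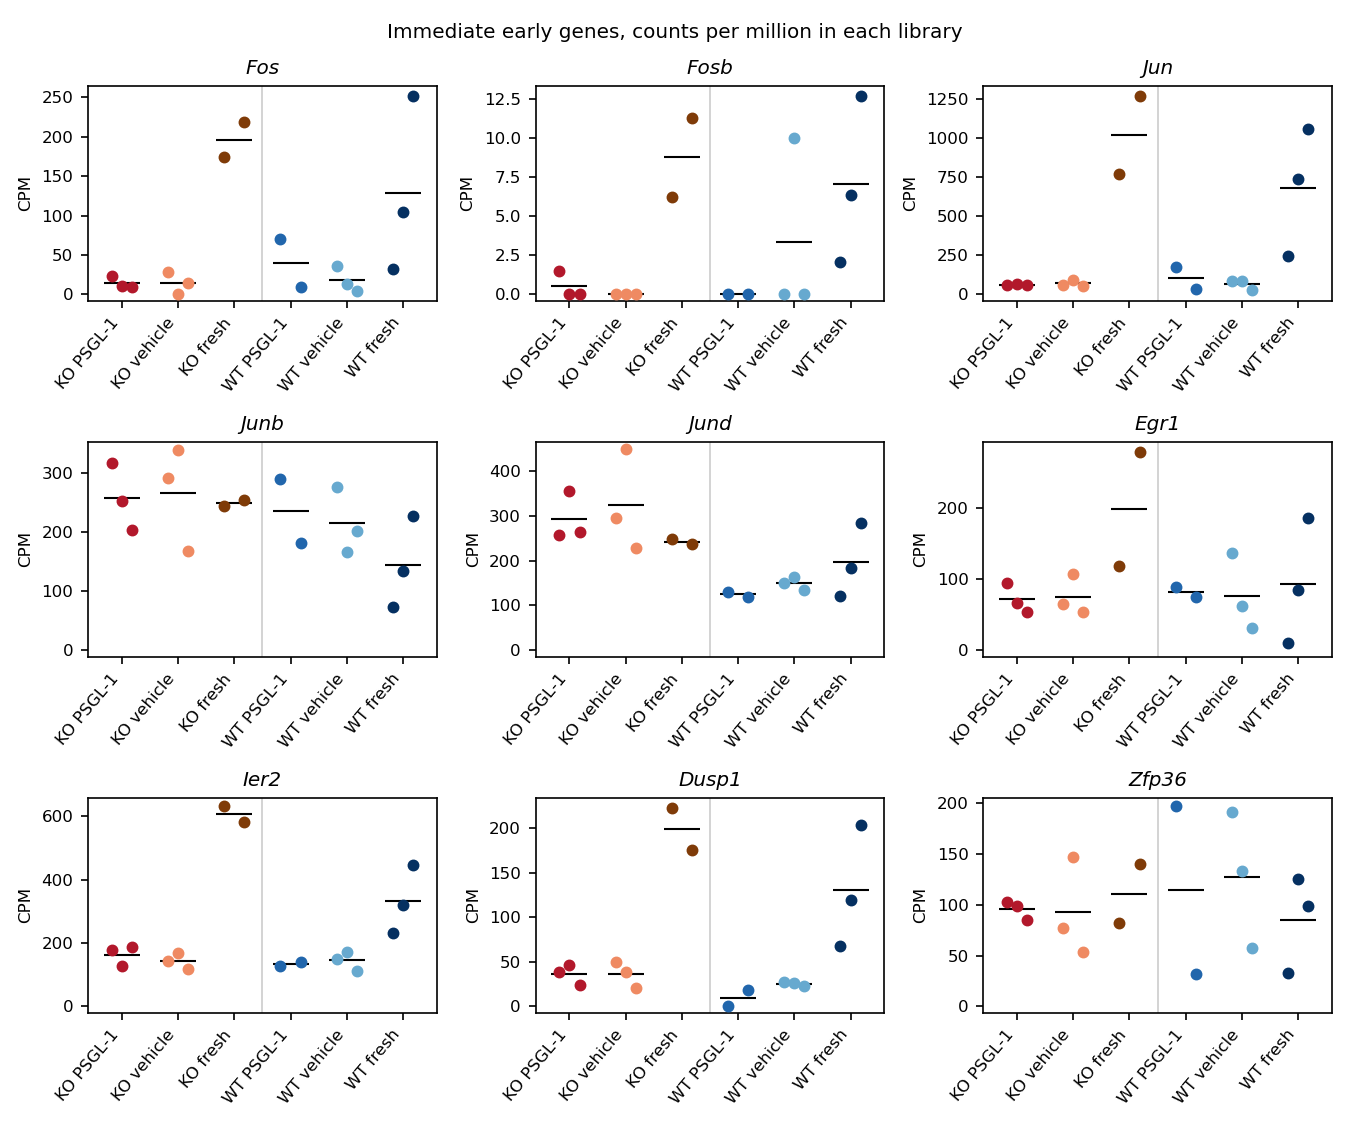
CPM of the 9 tested genes in each library (points), with the group mean as a line and each gene on its own linear axis from 0. Jun, Ier2 and Dusp1 are lower in all 11 cultured libraries than in all 5 fresh ones, while Jund separates the KO from the WT libraries within culture.

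The promoters of 3 of the genes that were lower in culture, Fos, Jun and Dusp1, and of 2 that did not pass the test, Junb and Zfp36, are shown to compare their elements. Each line gives the 150 bases before the RefSeq transcript start (GRCm38.p6), in the gene's direction, at chr12:85473740-85473889 (plus strand), chr4:95052223-95052372, chr17:26508473-26508622, chr8:84978749-84978898 and chr7:28379229-28379378 (minus strand). Capitals mark TGACG or TGACNTCA (cAMP response element and its variants), TATAAA, a CArG box (the serum response factor motif) or GCGNGGGCG (the Egr motif).
Fos: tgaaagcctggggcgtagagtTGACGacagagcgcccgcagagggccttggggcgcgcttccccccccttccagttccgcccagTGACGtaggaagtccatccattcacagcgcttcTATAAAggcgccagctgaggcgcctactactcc
Jun: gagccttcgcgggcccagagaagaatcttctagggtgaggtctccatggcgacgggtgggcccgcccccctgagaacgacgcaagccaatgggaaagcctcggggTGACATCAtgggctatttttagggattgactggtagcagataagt
Dusp1: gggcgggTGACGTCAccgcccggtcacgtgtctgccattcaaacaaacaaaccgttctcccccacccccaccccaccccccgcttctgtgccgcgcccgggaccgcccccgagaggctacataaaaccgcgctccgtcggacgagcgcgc
Junb: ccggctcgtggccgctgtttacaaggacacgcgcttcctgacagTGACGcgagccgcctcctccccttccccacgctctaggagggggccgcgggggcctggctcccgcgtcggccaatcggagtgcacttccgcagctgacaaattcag
Zfp36: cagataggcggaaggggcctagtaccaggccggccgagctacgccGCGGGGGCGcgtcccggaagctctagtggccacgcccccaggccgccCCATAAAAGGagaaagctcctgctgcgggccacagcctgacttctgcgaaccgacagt

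RefSeq promoter windows, from 250 bases before to 50 after the start, were found for 8 of the 10 genes, all but Egr1 and Ier2. That of Jund began 1210 bases upstream of the GENCODE start and was left out, and the other 7 lay within 30 bases of one. Searched on both strands, TGACG was present in 5 of the 7 (Fos, Fosb, Junb, Atf3 and Dusp1), against 20.8% of 32851 promoters. The full palindrome TGACGTCA, which contains it, was found in Dusp1 at position -143 from the start, against 1.79% of promoters. Jun held TGACNTCA at position -45, a motif found in 8.83% of promoters and also, as the palindrome, in Dusp1. The CArG box was found in Zfp36 at -58 (1.63% of promoters), GCGNGGGCG in Fosb and Zfp36 (5.55%), and TATAAA in Fos and Junb (13.6%). The AP-1 site TGANTCA was in none of the 7 windows, against 7.81% of promoters. These are matches of letters in a short window. TGACG was present in Fos and Dusp1, which were lower in culture, and also in Junb, which did not pass the test.

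The 3′ untranslated regions were searched for TATTTAT, the core of the AU-rich elements that mark short-lived mRNAs and that Zfp36 protein binds. It occurred 3 times in Zfp36 and Dusp1, 2 times in Fos, and 1 time in Fosb, Jun, Jund and Atf3, but not in Junb, Ier2 or Egr1. Of 20641 mouse genes with an annotated 3′ UTR, 26.2% held it at least 1 time (GENCODE vM21, main transcript: the best APPRIS rank, then the longest). A window of 30 bases is shown for Fos, Jun, Dusp1 and Zfp36, with matches in capitals. The windows lie at chr12:85477111-85477140 (plus strand), chr4:95049082-95049111, chr17:26505881-26505910 and chr7:28376954-28376983 (minus strand).
Fos 3′ UTR: attTATTTATtaagatggattctcagatat
Jun 3′ UTR: acctttgcttgtgcaTATTTATaatagcgt
Dusp1 3′ UTR: gcgcgtatgagagtttttaccttTATTTAT
Zfp36 3′ UTR: TATTTATgacgacttTATTTATtgtattaa
The main transcripts of Jun, Junb, Jund and Ier2 have a single exon in this annotation. Reads of these transcripts could thus not be told by splicing from any unspliced or genomic template.

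Fos, the AP-1 subunit that cannot pair with itself, is on chromosome 12 from 85473890 to 85477273. Fos had 23.6, 10.3 and 9.22 CPM in the KO PSGL-1 libraries, 28.5, 0 and 14 CPM in KO vehicle, and 174 and 219 CPM in KO fresh. WT libraries had 70.4 and 9.14 CPM with PSGL-1, 35.5, 13.2 and 4.45 CPM with vehicle, and 31.5, 104 and 252 CPM in fresh cells. All KO cultured libraries were thus below both KO fresh ones, whereas in WT the fresh replicate 1 lay inside the cultured range. The share of all genes with such an order in KO was not counted. KO vehicle replicate 2 had 0 Fos counts of 13481058.

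Over all cultured against all fresh libraries Fos had a log2 fold change of -2.98 (SE 0.77, edgeR adjusted p = 0.0233). Without the sparse library it was -3.49. The call was lost without KO fresh replicate 1, KO fresh replicate 2 or WT fresh replicate 3 (adjusted p = 0.0737, 0.0619 and 0.0831). Neither vehicle comparison passed on its own, at -3.76 in KO (SE 1.39, adjusted p = 0.251) and -2.78 in WT (SE 1.28, adjusted p = 0.404). Its log2 CPM had an SD of 2.25 within groups, more than 97.9% of the 4865 tested genes within 2-fold of its mean level.

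Fosb, a paralog of Fos on chromosome 7, was the rarest tested gene of the set. It had 0 counts in 9 of 11 cultured libraries, with 26 counts in KO PSGL-1 replicate 1 and 159 in WT vehicle replicate 2. The fresh libraries held 110 and 194 counts in KO, and 28, 80 and 177 in WT. WT vehicle replicate 2, at 10 CPM, lay inside the fresh range of 2.04 to 12.7 CPM. Over all cultured against fresh libraries it missed the threshold in edgeR (adjusted p = 0.052) but was called lower by DESeq2 (adjusted p = 2.41e-08) and limma (adjusted p = 0.00223), as it was for KO vehicle against KO fresh (adjusted p = 2.98e-09 and 0.013). DESeq2 called 8.53% and limma 6.53% of all genes lower over all cultured libraries, and 2.2% and 2.56% in the KO comparison. In edgeR it passed with no filter, with a stricter one, without KO PSGL-1 replicate 1 and without WT vehicle replicate 2 (adjusted p = 0.0432, 0.0499, 0.035 and 0.0163). The WT vehicle comparison gave no call in edgeR (adjusted p = 0.967), and Fosb fold changes are not given because whole groups were at 0.

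Jun, the AP-1 subunit that can pair with itself or with Fos, had the largest fold change among the 8 genes counted in every group. It lies on chromosome 4 from 95049034 to 95052222, as a single exon. Jun had 56.8, 62.9 and 59.4 CPM in KO PSGL-1, 61.6, 93.2 and 56 CPM in KO vehicle, and 770 and 1270 CPM in KO fresh. WT libraries had 173 and 36.8 CPM with PSGL-1, 83.5, 85.8 and 29 CPM with vehicle, and 244, 735 and 1060 CPM in fresh cells. No cultured library reached the lowest fresh one, and the highest cultured value was that of the sparse WT PSGL-1 replicate 1.

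The log2 fold change of Jun was -3.44 over all cultured against fresh libraries (SE 0.35, edgeR adjusted p = 2.21e-05), and -3.81 without the sparse library (adjusted p = 4.21e-06). It was -3.81 for KO vehicle against KO fresh (SE 0.62, adjusted p = 0.00482) and -3.27 for WT vehicle against WT fresh (SE 0.58, adjusted p = 0.00947). Jun and Ier2 were the 2 of 9 genes called lower in KO, against 0.538% of all genes, and also the 2 called in WT, against 0.404%. The difference between the KO and WT responses of Jun was -0.54 (SE 0.80, adjusted p = 1).

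Junb, which pairs with Fos proteins but is a weaker activator than Jun at many sites, had 318, 253 and 204 CPM in KO PSGL-1, 293, 340 and 168 CPM in KO vehicle, and 245 and 255 CPM in KO fresh. In WT it had 290 and 182 CPM with PSGL-1, 277, 166 and 203 CPM with vehicle, and 74, 134 and 228 CPM in fresh cells. Cultured and fresh ranges overlapped in both genotypes. The log2 fold change over all cultured against fresh libraries was 0.41 (SE 0.25, edgeR adjusted p = 0.348).

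Jund, the Jun paralog that is expressed constitutively in many cells, had 258, 356 and 264 CPM in KO PSGL-1, 294, 448 and 227 CPM in KO vehicle, and 248 and 237 CPM in KO fresh. The WT values were 130 and 119 CPM with PSGL-1, 150, 163 and 135 CPM with vehicle, and 122, 183 and 284 CPM in fresh cells. Over all cultured against fresh libraries its log2 fold change was -0.03 (SE 0.19, adjusted p = 1 in edgeR). Its levels separated the genotypes in culture, as described further on.

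**Figure D2:**
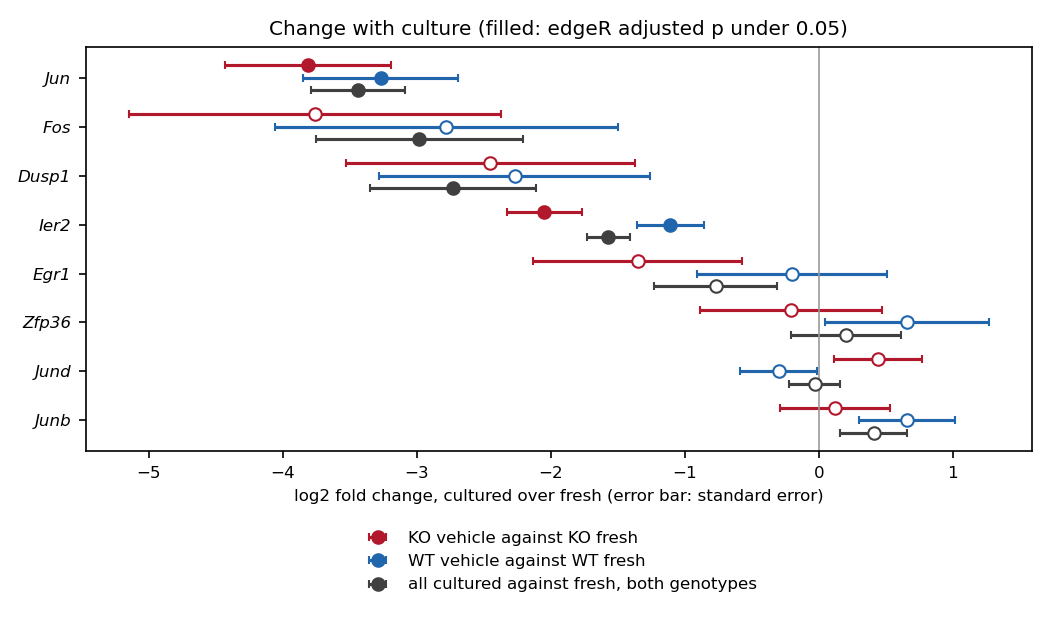
Log2 fold change of cultured over fresh HSCs for 8 genes, with the standard error as bar, for KO vehicle (red), WT vehicle (blue) and all cultured libraries (black), filled where the edgeR adjusted p was under 0.05. Jun and Ier2 are filled in all 3 comparisons, Fos and Dusp1 in the largest one, and Fosb is left out because whole groups had 0 counts.

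Set against transcript length, the makeup of Jun family RNA differed between cultured and fresh cells. Jun made up 4.50% to 18.6% (median 6.29%) of summed Jun, Junb and Jund CPM per kilobase in cultured libraries, against 40.1% to 58.6% (median 52.9%) in fresh ones. The share of Junb was 37.5% to 56.9% in cultured and 17.9% to 25.8% in fresh libraries, and neither pair of ranges overlapped. The share of Jund was 26.6% to 57.3% in cultured and 20.8% to 38.5% in fresh libraries, with overlap. The ratio of Jun to Junb per kilobase was at most 0.339 in culture, in the sparse library, and at least 1.78 in fresh cells. Shares add up to the whole, so the lower share of Jun by itself gives higher shares of the others.

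**Figure D3:**
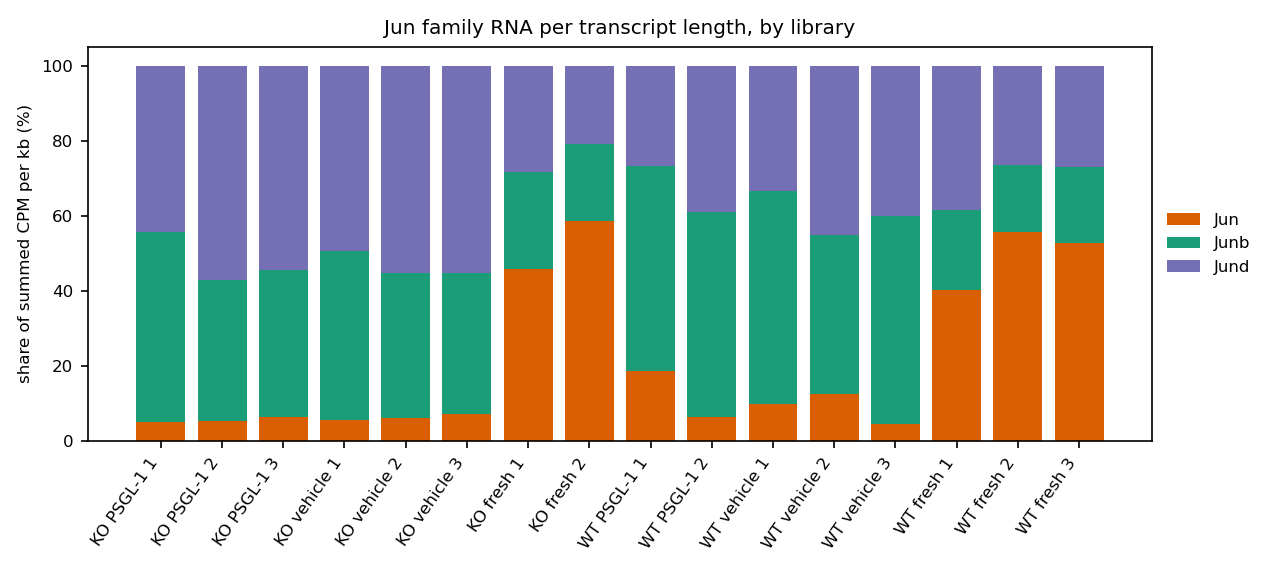
Share of Jun, Junb and Jund in their summed CPM per kilobase of transcript (%) in each of the 16 libraries. Jun takes 40.1% or more in the 5 fresh libraries and 18.6% or less in the 11 cultured ones.

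Egr1 had 94.5, 66.2 and 54.6 CPM in KO PSGL-1, 65.2, 107 and 53.4 CPM in KO vehicle, and 119 and 280 CPM in KO fresh. In WT it had 89.8 and 75.5 CPM with PSGL-1, 137, 62.5 and 31.5 CPM with vehicle, and 9.84, 84.5 and 187 CPM in fresh cells. The KO cultured libraries were below both KO fresh ones, an order whose share among all genes was not counted. The lowest Egr1 value of the series was, however, in a fresh WT library. The log2 fold change over all cultured against fresh libraries was -0.77 (SE 0.46, edgeR adjusted p = 0.346). The direction in WT depended on that spread, at -0.20 for vehicle against fresh (SE 0.71) but 0.83 without WT fresh replicate 3, and neither value passed the test.

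Ier2, a small nuclear protein induced early by growth factors, had the smallest spread within groups of the 9 tested genes (SD 0.31 on the log2 scale). It had 177, 126 and 186 CPM in KO PSGL-1, 144, 169 and 119 CPM in KO vehicle, and 632 and 581 CPM in KO fresh. In WT it had 126 and 140 CPM with PSGL-1, 150, 173 and 113 CPM with vehicle, and 233, 321 and 447 CPM in fresh cells. The highest cultured library, at 186 CPM, was below the lowest fresh one, at 233 CPM. Jun, Ier2 and Dusp1 were the 3 of 9 genes with no overlap between all cultured and all fresh libraries in that direction, against 3.46% of all genes tested.

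The log2 fold change of Ier2 was -1.57 over all cultured against fresh libraries (SE 0.16, edgeR adjusted p = 2.5e-05). It was -2.05 in KO (SE 0.28, adjusted p = 0.00139) and -1.11 in WT (SE 0.25, adjusted p = 0.0404) for vehicle against fresh. The WT call was lost in 9 of the 16 fits that left out 1 library, and without WT fresh replicate 3 the fold change was -0.83 (adjusted p = 0.209). It was also lost in edgeR with the compared groups fitted alone (-1.12, adjusted p = 0.0846). The difference between the KO and WT responses was -0.94 (SE 0.38) and did not pass (adjusted p = 1 in edgeR).

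Atf3, a stress-induced factor that pairs with Jun proteins, was at the limit of detection. The 5 counts in KO fresh replicate 2 corresponded to 0.292 CPM, and 0 counts in the other libraries allowed at most 0.238 CPM.

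Dusp1, the phosphatase that switches off the MAP kinases upstream of Fos and Jun, had 38.3, 46.3 and 23.7 CPM in KO PSGL-1, 49.8, 38.1 and 20.3 CPM in KO vehicle, and 223 and 176 CPM in KO fresh. In WT it had 0 and 18.1 CPM with PSGL-1, 27.3, 25.7 and 22.6 CPM with vehicle, and 67.6, 120 and 204 CPM in fresh cells. All cultured libraries were below all fresh ones. Over all cultured against fresh libraries the log2 fold change was -2.73 (SE 0.62, edgeR adjusted p = 0.0115). Without the sparse library, which held the 0, it was -2.47 (SE 0.30, adjusted p = 3.79e-05), and without the other WT PSGL-1 library, which leaves that group at 0, the fitted value was -5.28. The call was lost without KO fresh replicate 1 (adjusted p = 0.0574).

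The vehicle comparisons of Dusp1 gave -2.45 in KO (SE 1.08, adjusted p = 0.383) and -2.27 in WT (SE 1.01, adjusted p = 0.384) in edgeR. Limma called Dusp1 in KO (adjusted p = 0.00516), where it called 2.56% of all genes lower. In edgeR both comparisons passed with the compared groups fitted alone (adjusted p = 0.0324 in KO and 0.0339 in WT). Those fits called 0.941% and 0.876% of all genes lower. Both passed without the sparse library, which is in neither comparison but enters the shared estimate of the spread, with log2 fold changes of -2.43 in KO and -2.28 in WT (adjusted p = 0.00512 and 0.00612). They also passed without WT PSGL-1 replicate 2 (adjusted p = 0.00533 and 0.00649). Both fits called 1.27% or more of all genes lower in KO and 1.04% or more in WT.

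Zfp36, which encodes the protein tristetraprolin that binds AU-rich elements and speeds mRNA decay, did not follow Dusp1. It had 103, 99.2 and 84.7 CPM in KO PSGL-1, 77.2, 147 and 53.1 CPM in KO vehicle, and 81.6 and 140 CPM in KO fresh. The WT values were 197 and 31.6 CPM with PSGL-1, 191, 133 and 57.7 CPM with vehicle, and 32.6, 125 and 98.6 CPM in fresh cells. Cultured and fresh ranges overlapped in both genotypes. Its log2 fold change over all cultured against fresh libraries was 0.20 (SE 0.41, adjusted p = 0.879 in edgeR), and -0.26 without the sparse library.

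Per kilobase of transcript, the order of median levels in fresh cells was Ier2 (294 CPM per kb), Jun (241), Jund (142), Junb (126), Dusp1 (88.4), Fos (82.5), Zfp36 (35.3), Egr1 (26.6) and Fosb (1.68). In cultured cells it was Junb (140 CPM per kb), Jund (136), Ier2 (94.6), Zfp36 (35.6), Jun (19.3), Egr1 (14.8), Dusp1 (12.9), Fos (6.25) and Fosb (0). Neighbours in both orders overlapped in their ranges over libraries, except that in culture Zfp36 at 11.3 to 70.6 was below Ier2 at 74.5 to 122 CPM per kb. These levels depend on the transcript lengths of the annotation used here.

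Markers of other cell types also moved with culture. The summed level of 10 granulocyte and monocyte markers was 201 to 301 CPM in KO cultures and 123 to 413 CPM in WT cultures, against 1230 to 1350 CPM in KO fresh and 781 to 807 CPM in WT fresh libraries. Of these 10, 6 were lower in culture in edgeR, against 4.67% of all genes, and S100a8 and S100a9 were at 0 in every cultured group. Summed erythroid markers, 9 genes, were 474 to 676 CPM in KO cultures and 849 to 1010 CPM in WT cultures, against 1590 to 2440 CPM in KO fresh and 2200 to 2850 CPM in WT fresh libraries, with Hba-a1, Hbb-bs and Hbb-bt at 0 throughout. Of the 5 tested, 2 were lower. Summed megakaryocyte and platelet markers, 8 genes, were 1030 to 2010 CPM in KO cultures and 1200 to 2130 CPM in WT cultures, against 2120 to 2410 CPM in KO fresh and 1840 to 2600 CPM in WT fresh libraries, and 3 of 7 tested were lower. T and NK cell markers summed to 1.23 to 19 CPM in KO cultures and 0 to 25.6 CPM in WT cultures, against 40.9 to 46.2 CPM in KO fresh and 68.6 to 103 CPM in WT fresh libraries, and 1 of 2 tested was lower. None of the 5 tested endothelial and stromal markers passed, nor did the 1 tested B cell marker. Among the 12 HSC markers, 6 were lower and 2 higher in culture, against 4.67% and 5.54% of all genes. The part of these shifts in the levels of the immediate early genes was not tested, and in bulk RNA fewer cells of a type and less RNA per cell cannot be told apart.

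Other genes of the pathway did not share one direction with culture. Of 11 tested AP-1 and bZIP partners none passed edgeR's test in the comparison of all cultured with fresh libraries. The best expressed of them were Mafg, which partners other bZIP factors, with 100 ± 38.9 CPM in cultured and 68.3 ± 14.6 CPM in fresh libraries (adjusted p = 0.188), and Batf, an AP-1 factor of immune cells, with 71.5 ± 45.2 CPM in cultured and 63.2 ± 13.2 CPM in fresh libraries (adjusted p = 0.786; SD, n = 11 and 5). In this comparison 5.54% of all genes were higher and 4.67% lower, and counts of 1 or 2 in lists of 18 to 24 genes are near those shares. Of 18 other immediate early transcription factors, 2 were higher and 1 lower. Bhlhe40, a repressor induced by many stimuli, had 122 to 405 CPM in cultured and 0.228 to 28.9 CPM in fresh libraries (log2 fold change 3.90, SE 0.63, adjusted p = 0.0011). Hes1, a Notch target, had 5.62 to 69.9 CPM in cultured and 1.99 to 6.51 CPM in fresh libraries (3.53, SE 0.57, adjusted p = 0.000959). Klf10, a TGF-beta inducible factor, was lower (-0.69, SE 0.16, adjusted p = 0.0132).

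Of 19 other early response regulators, 1 was lower and none higher, against 4.67% and 5.54% of all genes. That gene was Ppp1r15a, which encodes the stress-induced phosphatase subunit GADD34, at 11.5 to 56.1 CPM in cultured and 129 to 240 CPM in fresh libraries (log2 fold change -2.15, SE 0.27, adjusted p = 0.000105). Of 20 feedback inhibitors, 1 was higher and 2 lower. Socs3, an inhibitor of JAK-STAT signalling, had 124 to 229 CPM in cultured and 10.8 to 48.1 CPM in fresh libraries (2.57, SE 0.29, adjusted p = 5.82e-05). Nfkbia, which encodes the NF-kappaB inhibitor, was lower (-1.03, SE 0.15, adjusted p = 0.000529), as was Dusp2, a phosphatase related to Dusp1 (-1.08, SE 0.21, adjusted p = 0.0035). Medians over the genes counted in every group were 0.20, 0.09, -0.28 and -0.07 for these 4 lists, against -0.07 for all genes.

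Of 24 kinases and serum response factors upstream of the immediate early genes, 2 were higher and none lower, against 5.54% and 4.67% of all genes. Map2k3, a kinase of the p38 pathway, had a log2 fold change of 0.97 (SE 0.17, adjusted p = 0.00181), and Rps6ka3, the ribosomal S6 kinase RSK2, of 1.98 (SE 0.31, adjusted p = 0.000913). Of 9 genes often described as late targets of AP-1, 3 were higher and none lower. Spp1, which encodes osteopontin, had 110 to 1000 CPM in cultured and 0 to 7.80 CPM in fresh libraries (adjusted p = 0.000267). Vim, which encodes vimentin, and Hmox1, heme oxygenase 1, had log2 fold changes of 0.93 (SE 0.12, adjusted p = 0.000181) and 3.15 (SE 0.85, adjusted p = 0.0288). Of 11 heat shock genes linked to cell isolation, 4 were higher and none lower: Hspd1 (0.79), Hspe1 (0.80), Hsph1 (1.29) and Hsp90aa1 (0.60), with adjusted p = 0.000465, 0.0395, 0.00446 and 0.00637. Medians were 0.04, 0.93 and 0.55 for these 3 lists. The 4 called heat shock genes were thus higher, and Jun, Fos, Dusp1 and Ier2 lower, in cultured than in fresh libraries.

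**Figure D4:**
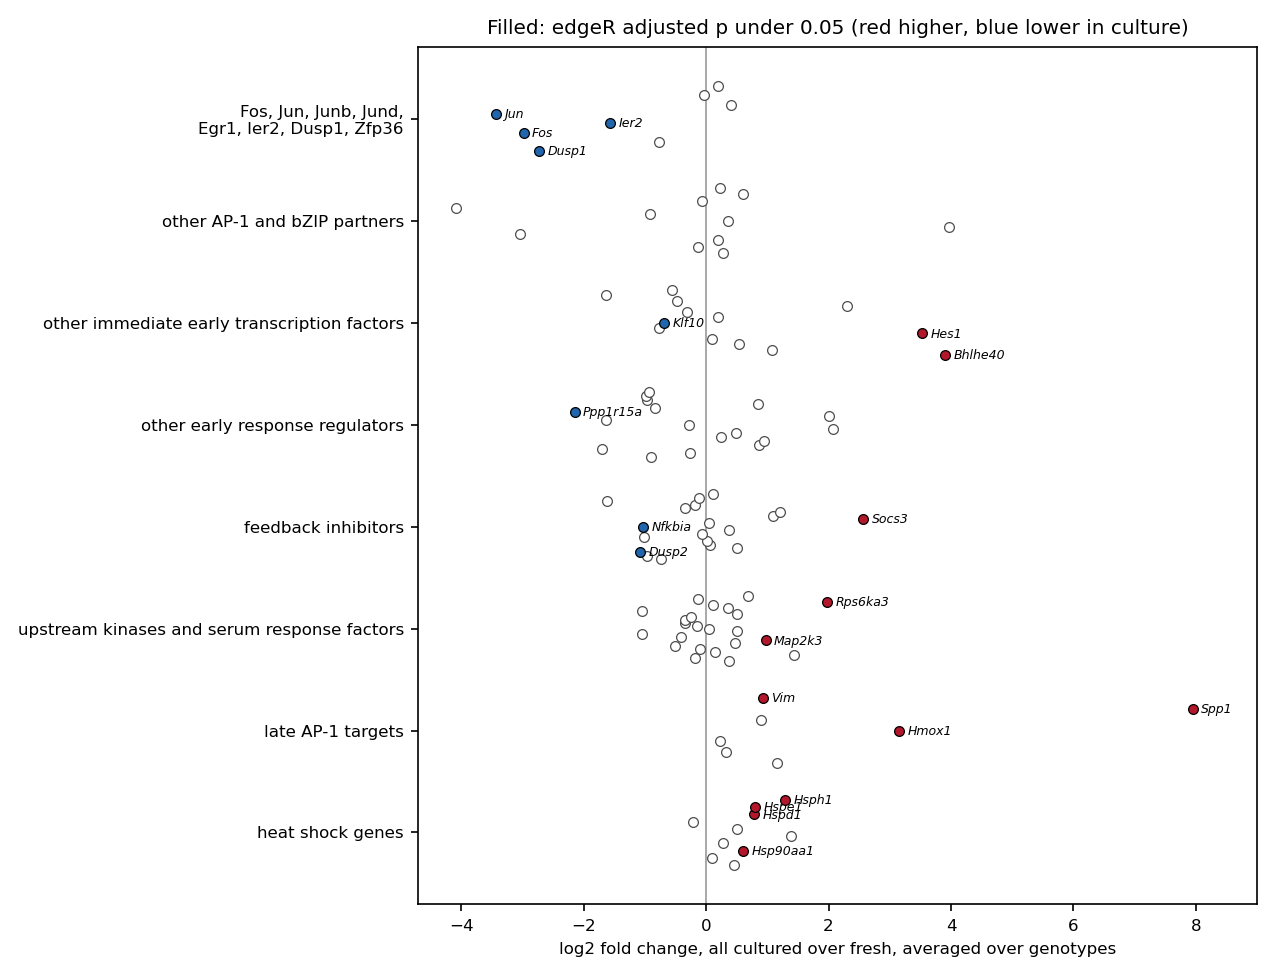
Log2 fold change of all cultured over fresh libraries for single genes of 8 lists, filled where the edgeR adjusted p was under 0.05, red for higher and blue for lower in culture. Genes with 0 counts in a whole group are left out, and 4 of 8 genes in the top row are blue, while the filled heat shock genes and late AP-1 targets are all red.

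The 5 fresh libraries differed among themselves in all 9 tested genes at once. WT fresh replicate 1 was the lowest of the 5 for 9 of 9 genes, against 17.1% of all tested genes lowest in that library. The median of the 9 genes in it was -1.39 on the log2 scale from the mean of the 5 fresh libraries, while the median of all tested genes was 0. KO fresh replicates 1 and 2 and WT fresh replicate 3 were above the mean for 9 of 9 genes. Egr1 had the widest range, 9.84 to 280 CPM or 28.5-fold, then Fos at 8.01-fold, Fosb at 6.21-fold and Jun at 5.23-fold. Jund and Ier2 had the narrowest, at 2.32-fold and 2.71-fold.

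WT fresh replicate 1 was also the library most often lowest in 4 related lists, for a smaller share of their genes. It was lowest for 5 of 11 AP-1 and bZIP partners, 5 of 18 other immediate early transcription factors, 9 of 19 early response regulators and 9 of 24 upstream kinases and serum response factors, against 17.1% of all tested genes. It was lowest for 3 of 20 feedback inhibitors, 2 of 9 late AP-1 targets and 0 of 11 heat shock genes. The summed level of the heat shock genes there was 5910 CPM, against 4540 to 6330 CPM in the other 4. Its total of 13723043 counts and its 12684 detected genes lay inside the ranges of the other fresh libraries. The part of sorting or handling in this order was not tested, since the labels give no time from tissue to lysis.

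**Figure D5:**
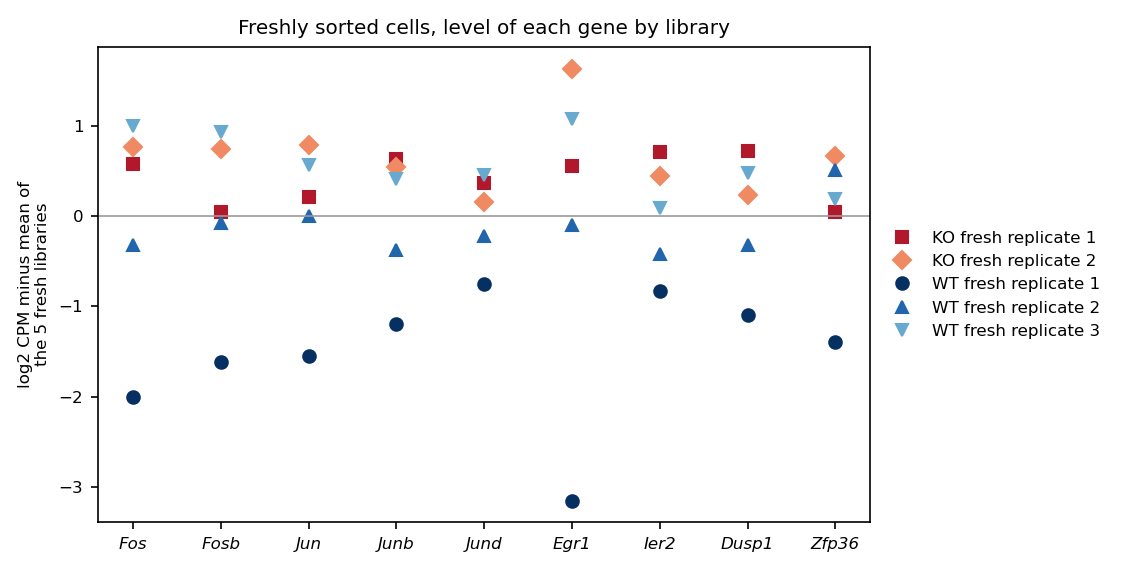
Level of 9 genes in each of the 5 fresh libraries as log2 CPM minus the mean of the 5. WT fresh replicate 1 (dark circles) is the lowest point for each gene, down to Egr1 at 9.84 CPM, and both KO libraries (squares and diamonds) are above 0 throughout.

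In fresh cells none of the 9 genes passed for KO against WT, against 0.00708% of all genes in edgeR, 0.658% in DESeq2 and 0.0496% in limma. All 8 genes with counts in every group had positive log2 fold changes, from 0.36 for Jund to 1.12 for Egr1, with a median of 0.66 against 0 for all genes. Ier2, at 0.92 (SE 0.28, adjusted p = 1 in edgeR), was the 1 gene with an unadjusted p under 0.05, against 2.84% of all genes. Ier2 and Junb had no overlap, with both KO fresh libraries above all 3 WT fresh ones, as was the case for 9.1% of all genes. The low WT fresh replicate 1 enters all of these values: without it the median of the 8 genes was 0.30, with values from 0.03 for Zfp36 to 0.72 for Ier2. By runs of 6 library numbers it stood in run 1 (number 1), where KO fresh had no library. The KO fresh libraries, numbers 10 and 16, stood in runs 2 and 3, so the genotypes were not balanced over runs in fresh cells. Leaving out WT fresh replicate 3 gave a median of 1.17.

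Jund was the gene of the set that separated KO from WT in culture. The 6 KO cultured libraries had 227 to 448 CPM (median 279) and the 5 WT cultured libraries 119 to 163 CPM (median 135). The ranges did not overlap, as was the case, with KO higher, for 0.743% of all tested genes. The log2 fold change was 1.1 with vehicle (SE 0.29, adjusted p = 1 in edgeR) and 1.22 with PSGL-1 (SE 0.34, adjusted p = 0.765). In fresh cells it was 0.36 (SE 0.32) and the ranges overlapped.

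Averaged over the 3 conditions, Jund had a log2 fold change of 0.89 for KO against WT (SE 0.18), with adjusted p = 0.178 in edgeR and 0.00103 in DESeq2. The edgeR value passed when WT PSGL-1 replicate 2 was left out (0.88, adjusted p = 0.00541), a fit that kept the sparse library alone in its group and called 15.1% of all genes. None of the 9 genes passed in edgeR or limma in this comparison, against 0.0354% of all genes in both, and DESeq2 called Jund, against 1.71%. Within culture the share of Jund in Jun family RNA per kilobase was 44.4% to 57.3% in KO and 26.6% to 45.1% in WT libraries. Jund and Ier2 were the 2 genes with an unadjusted p under 0.05 in edgeR, against 6.84% of all genes, with Ier2 at 0.39 (SE 0.16, adjusted p = 0.679).

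With vehicle and with PSGL-1 taken alone, none of the 9 genes passed for KO against WT in edgeR or limma, against 0.00708% of all genes in each with edgeR, and 0.0212% and 0% with limma. Fosb and Jund had an unadjusted p under 0.05 with vehicle, against 2.83% of all genes, and Jund with PSGL-1, against 5.81%. DESeq2 called Fosb with vehicle, against 0.786% of all genes, where the difference was 0 counts in all 3 KO libraries against 159 counts in 1 of 3 WT libraries. With PSGL-1 it called Jund (adjusted p = 0.0369) and Fosb, against 1.77% of all genes, and for Fosb 26 counts in 1 KO library stood against 0 in both WT libraries.

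None of the 9 genes passed in edgeR or limma for KO PSGL-1 against KO vehicle or for WT PSGL-1 against WT vehicle, against 0% of all genes in both. None had an unadjusted p under 0.05 in KO, against 1.4% of all genes, or in WT, against 5.69%. DESeq2 called Fosb in each, against 0.29% and 1.62% of all genes, on 26 counts in KO PSGL-1 replicate 1 and on 159 in WT vehicle replicate 2. In KO the log2 fold changes of the other 8 genes lay between -0.24 and 0.17. In WT they lay between -1.47 for Dusp1 and 1.16 for Fos, both of which rested on the sparse library, with its 0 and 70.4 CPM. The value of Jund in WT was -0.27 (SE 0.33, adjusted p = 0.906 in edgeR). Without WT PSGL-1 replicate 2, edgeR called Dusp1 lower in WT PSGL-1 against WT vehicle, when it called 19.7% of all genes. In the tests of the KO minus WT difference no gene passed in edgeR or limma, for the response to culture or to PSGL-1, against 0% of all genes, and DESeq2 called Fosb in each, against 0.489% and 0.835%. Fosb and Ier2 had an unadjusted p under 0.05 for culture, against 2.5% of all genes, and Fosb for PSGL-1, against 4.33%.

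Within groups, the genes of the set varied together to different degrees. Over the 16 libraries, with group means removed, the correlation of each gene with the mean of the others was 0.77 for Egr1, 0.67 for Ier2, 0.61 for Jun, 0.57 for Junb, 0.48 for Jund and 0.44 for Zfp36. It was 0.36 for Fosb, 0.13 for Fos and -0.15 for Dusp1, the last of which was 0.62 without the sparse library. Of 10668 other genes at 5 CPM or more on average, those most like the mean of the set were Samd8 (r = 0.89), Atrnl1 (0.87), Myo18a (0.86), Luzp1 (0.85), Arid5b (0.84), Itgav (0.83), Galnt1 (0.82) and Eif4a2 (0.81). These r values describe 16 libraries that share cell source and library chemistry, and the highest of so many values are high by selection. With group means removed, they leave out the difference between cultured and fresh cells. Mean CPM of Samd8, Atrnl1, Luzp1, Itgav and Galnt1 was higher in cultured libraries (Luzp1 at 94.2, against 23 in fresh). That of Myo18a, Arid5b and Eif4a2 was lower (Eif4a2 at 129, against 252).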

How the data were processed

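The authors deposited raw read counts by gene symbol, with a column for each library. Libraries came from a SMART Ultra-Low Input preparation, a full-length cDNA amplification for small RNA amounts, per the labels' protocols. The submitters' processing notes name STAR 2.7.5c, featureCounts, MultiQC 1.10 and DESeq2, with mm10 as build. The sources used here give no annotation, strand setting or treatment of reads with several matches. Reads of overlapping or antisense genes therefore cannot be told apart from those of the genes named.

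CPM are counts scaled to the library total. One edgeR 4.0.16 quasi-likelihood model (robust, TMM scaling, filterByExpr by group, 1 mean per group) was fitted to all 16 libraries in R 4.3.3, with 11 comparisons and Benjamini-Hochberg adjustment over 14124 tested genes. A standard error is the fold change over the root of its F value. No p was adjusted over the 10 genes alone. DESeq2 1.42.0 and limma 3.58.1 (voom with library quality weights) were alternatives, besides 2 other scalings, 2 other filters, the compared groups alone, each library left out, and 2 replicate blocks. The steps were tested on simulated data.

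The 10 genes, the gene lists and the tests were chosen with earlier results of these data known, and the motifs TGACG, TGACNTCA and TATAAA were added after the sequences were seen. All 10 genes were named in the text. From other lists up to 4 called genes with the smallest adjusted p in the comparison of all cultured with fresh libraries were named, or the 2 with the highest mean CPM where none was called. Sequences are RefSeq promoters (GRCm38.p6) and GENCODE vM21 transcripts (GRCm38), and lengths are those of the main transcript. Coordinates start at 1.

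Libraries of a group differed by more than counting noise (smallest chi-square per degree of freedom 58.4), so none was taken for a library deposited 2 times. Amplified libraries of 1 RNA could also differ by that much.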

Additional observations from a re-analysis of the deposited data

How the results depend on the processing

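Jun kept its direction and its call in both vehicle comparisons and in all cultured against fresh libraries under every alternative run, as did Ier2 except in WT vehicle against WT fresh. Counts of called genes moved as follows. KO vehicle against KO fresh gave 4 with limma, against 2. WT vehicle against WT fresh gave 1 with the replicate block, and 1 to 3 with 1 library left out. All cultured against fresh gave 2 without KO fresh replicate 1, and 2 to 5 over all libraries left out. DESeq2 gave 1 gene, Fosb, for KO against WT with vehicle, both PSGL-1 comparisons and both differences of responses, 1 (Jund) for KO against WT averaged, and 2 for KO against WT with PSGL-1. Leaving out WT PSGL-1 replicate 2 gave 1 (Dusp1) for KO against WT with PSGL-1, WT PSGL-1 against vehicle and the difference of PSGL-1 responses, and 2 (Dusp1 and Jund) for KO against WT averaged. That fit, with the sparse library alone in its group, called 19.8%, 19.7%, 15.8% and 15.1% of all genes in these comparisons. Those counts ran from 0 to 1 and, averaged, 0 to 2 over all libraries left out.

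Values that changed sign, none of them called, were Egr1 in WT vehicle against fresh (0.16 with limma, -0.89 to 0.83 with 1 library left out) and, over the fits with 1 library left out, Junb in KO vehicle against fresh (-0.09 to 0.37), Jund in WT (-0.54 to 0.07) and over all cultured (-0.15 to 0.16), and Zfp36 in KO (-0.72 to 0.16) and over all cultured (-0.26 to 0.39). In the log2 fold changes of single genes, 829 alternatives kept direction and call, 16 lost a call, 10 gained one and 11 changed sign. The cause was not tested.

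Replicate numbers were shared across groups. Libraries of different groups with the same number had low correlations of their deviations from group means (36 pairs, r from -0.07 to 0.08). Their median r was 0.01, against 0 for other pairs. Yet 12 of 16 libraries correlated best with a library of their own number, and 13 of 16 with one of their own run of 6 library numbers. Weak sharing between such libraries thus remains possible. The replicate block left Ier2 in WT vehicle against fresh at -1.09 (adjusted p = 0.0787) and changed no other count. A block on runs of 6 library numbers likewise lost that call alone (-1.09, adjusted p = 0.0761). Calls over all genes differed by over 1.5 times with DESeq2 (831, 797 and 2334 in KO vehicle, WT vehicle and all cultured against fresh, in place of 250, 231 and 1442) and with limma (542 and 706 in the vehicle comparisons). With 1 library left out they ran from 76 (KO fresh replicate 1) to 554 (WT PSGL-1 replicate 1), from 85 (WT fresh replicate 2) to 440 (either WT PSGL-1 library), and from 771 (KO fresh replicate 1) to 3770 (WT PSGL-1 replicate 2), so that 1.96% to 18% of all genes were lower in the last of these. Fits of the compared groups alone were not run for the 2 averaged comparisons, which use all 6 groups. Counting depth limits Atf3 and Fosb.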
